A study of Danio rerio with 228 samples.

Results

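Whole zebrafish embryos exposed to PFBS at 600 µM were set against embryos exposed to PFBS at 8 µM, the highest and the lowest of the 5 concentrations of this chemical. PFBS is a short-chain perfluorinated sulfonic acid, 1 of the 9 per- and polyfluoroalkyl substances of the study. The comparison took every library whose title names PFBS with one of these concentrations, which gave 4 pools at 600 µM and 4 pools at 8 µM, 8 of 228 libraries. The 8 pools differ in plate and RNA extraction batch and are otherwise labelled alike. They held 10 embryos each from the Ottawa breeding facility, exposed in water at 0.1% DMSO between 4 and 120 h after fertilisation. No mutation or transgene is labelled. The study set out transcriptomic points of departure, and transcripts were counted with TempO-Seq, which joins paired detector probes on each target RNA and sequences the product. Further groups serve only for reading the comparison. They are PFBS at 25, 80 and 250 µM with 4 pools each, 4 pools each of the carboxylic acid PFBA at 600 and 8 µM, 4 each of PFBA at 25, 80 and 250 µM, which entered the fit of both chemicals to estimate the spread, and 6 pools of the DMSO control that the labels assign to both chemicals. The labels do not say that pools came from separate spawnings, so p-values measure the spread between pools only.

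PFBS carries a fully fluorinated carbon chain on a sulfonic acid group, and PFBA has as many carbons in all, the last of them in a carboxylic acid. The gene lists used below were chosen with earlier results of these data known. Among them are the enzymes of cholesterol synthesis, which are transcribed together when cells run low on sterols, and the enzymes that attach glucuronic acid to hormones and foreign compounds. Light-driven clock genes, immediate early genes and the vitamin D 24-hydroxylase are known to respond quickly to outside signals.

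Libraries held 2599648 to 4148499 counts at 600 µM and 2613072 to 3963641 counts at 8 µM. Levels are CPM, read counts scaled to a common library size adjusted by TMM, and a change is the fitted log2 ratio with its standard error (SE). RNA yield was 334 ± 41.4 ng/µl at 600 µM and 312 ± 49.7 ng/µl at 8 µM (SD, n = 4 each, exact two-sided permutation test p = 0.657), and the RNA integrity number was 9.83 ± 0.126 at 600 µM and 9.80 ± 0.183 at 8 µM (exact permutation p = 1). The smallest p that 4 pools against 4 allow is 0.0286. Outside the comparison, replicate 3 at 80 µM PFBS stood apart, with a position of 48.96 on the first principal component of the 26 PFBS and DMSO pools, where the next highest pool lay at 11.9. The 8 pools held markers of many tissues of a whole embryo: 0 of the marker genes on the panel was at 0 in all of them. The liver marker fabp10a lay at 3890.2 to 6049.9 CPM at 600 µM and 3323 to 4169.9 CPM at 8 µM. As these are whole embryos, fewer cells of a type cannot be told apart from less RNA per cell.

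Of 2743 probes tested with edgeR, 17 passed the test at an adjusted p under 0.05 (Benjamini-Hochberg), which is 0.62% of them, and 253 had an unadjusted p under 0.05 (9.22%). At 600 µM 10 genes were higher (0.365%) and 7 lower (0.255%). DESeq2 called 29 genes. In all 17 genes the 4 pools at 600 µM lay on one side of the 4 pools at 8 µM, as they did in 8.57% of all probes (4.19% with the 600 µM pools above, 4.37% with them below). The calls were made on these same pools, so the lack of overlap in called genes is no added support for them. The higher genes were the sterol 14-demethylase cyp51, the fatty acid elongase elovl2, the glucuronidation genes ugdh, ugt1a2 and ugt2b5, the cytochrome b5 reductase cyb5r2, and trap1, mgmt, mettl2a and prdx2. The lower genes were cyp24a1, ddb2, loc110437775, fosab, per2, klf11a and abhd4. The calls of 4 genes (cyp24a1, ddb2, loc110437775 and cyp51) held when any 1 of the 8 pools was left out. The calls of 4 others (abhd4, elovl2, fosab and per2) ended without any 1 of them.

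**Figure D1:**
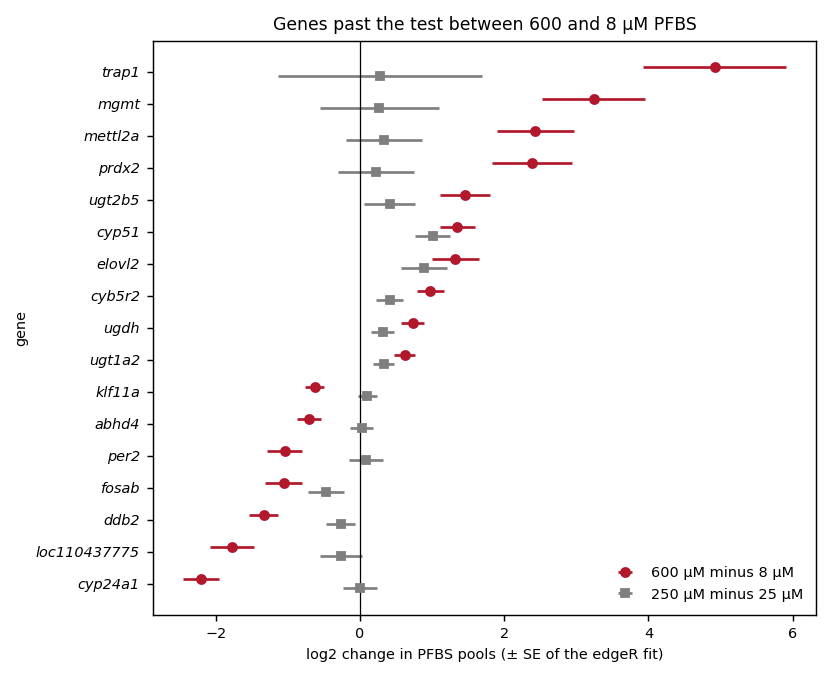
Fitted log2 change ± SE of the 17 genes past the test, for 600 minus 8 µM PFBS (red circles, 4 pools each) and for 250 minus 25 µM PFBS (grey squares, 4 other pools each). The changes between 600 and 8 µM run from −2.21 for cyp24a1 to 4.92 for trap1. Between 250 and 25 µM the changes of cyp51 and elovl2 are 1.01 and 0.89.

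Among the genes of cholesterol synthesis cyp51 was higher at 600 µM, and most of the others had positive changes that did not pass the test. Of 25 listed genes 13 are on the panel and 11 were tested. The list has 1 called gene, with 5 at an unadjusted p under 0.05, all higher. Of all probes 0.365% were called higher and 4.85% were higher at that unadjusted level. Its 11 changes had a median of 0.63 on the log2 scale, against 0.01 over all probes, and 10 were positive, where 51.6% of all probes were. The gene cyp51 encodes the enzyme that removes a methyl group from lanosterol. It had 124.3, 224.1, 197 and 179.96 CPM in the 600 µM pools and 82.4, 59.5, 71.7 and 71.7 CPM in the 8 µM pools, so the groups did not overlap (log2 change 1.35 ± 0.24 SE, adjusted p = 0.00499). Upstream of it, lss encodes the lanosterol synthase and hmgcs1 the synthase that makes HMG-CoA.

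The lss probe had 8.88, 12.9, 13.2 and 14.6 CPM in the 600 µM pools and 3.95, 4.83, 6.14 and 4.89 CPM in the 8 µM pools, and every 600 µM pool was above every 8 µM pool. Its change of 1.32 ± 0.40 did not pass over all probes (unadjusted p = 0.00295, adjusted p = 0.176 with edgeR). The hmgcs1 probe had 62.2, 130.2, 68.5 and 79.3 CPM in the 600 µM pools and 31.9, 24.1, 54.9 and 47.5 CPM in the 8 µM pools, again with no overlap, and its change of 1.0999 ± 0.27 missed the threshold narrowly (adjusted p = 0.054 with edgeR). DESeq2 called it (adjusted p = 0.00971).

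The isopentenyl diphosphate isomerase idi1 had 104.3, 181.01, 158.6 and 132.9 CPM in the 600 µM pools and 94.5, 90.5, 89.5 and 74.4 CPM in the 8 µM pools (log2 change 0.73 ± 0.24, unadjusted p = 0.00557). The phosphomevalonate kinase pmvk had 51.1, 50.8, 80.7 and 50.2 CPM in the 600 µM pools and 38.9, 33.4, 40.4 and 44.5 CPM in the 8 µM pools (log2 change 0.57 ± 0.24, unadjusted p = 0.0265). Both had all 600 µM pools above all 8 µM pools, and replicate 3 stood alone at the top for pmvk. The acetyl-CoA acetyltransferase acat2 had 279.5 to 317 CPM at 600 µM and 192.4 to 271 CPM at 8 µM (0.25 ± 0.14), also without overlap.

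So 6 of the 11 tested genes had all 600 µM pools above all 8 µM pools, as did 4.19% of all probes. In the other 5 tested genes the groups overlapped. They were hmgcra, the HMG-CoA reductase, at 4.44 to 15.5 CPM at 600 µM and 4.62 to 8.44 CPM at 8 µM (log2 change 0.72 ± 0.40), the squalene synthase fdft1 (0.63 ± 0.38), dhcr7 (0.40 ± 0.49), ebp (0.06 ± 0.50) and the sterol reductase and lamin receptor gene lbr (−0.28 ± 0.20). With dhcr7 at 1.49 to 4.21 CPM at 600 µM and 1.29 to 3.53 CPM at 8 µM, small changes were not detectable in it.

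Pools that the comparison did not use gave a further reading of these genes, whose list was chosen with earlier results of these data known. Between 250 and 25 µM PFBS 0 genes passed the test (0% of 2743 probes, with 77 at an unadjusted p under 0.05 or 2.81%, and DESeq2 called 0). In that contrast 10 of the 11 cholesterol synthesis genes were positive with a median of 0.49, where 49.5% of all probes were positive. Of the 11 genes 4 had an unadjusted p under 0.05 there, all higher, where 1.46% of all probes were higher and 1.35% lower. These 4 were cyp51 (1.01 ± 0.24, p = 0.000255), hmgcs1 (0.78 ± 0.27, p = 0.00704), idi1 (0.71 ± 0.24, p = 0.00689) and lss (0.96 ± 0.40, p = 0.0222), each by edgeR without adjustment.

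Over the series of DMSO, 8, 25, 80, 250 and 600 µM the mean level of cyp51 was 75.6 ± 16.5, 71.3 ± 9.35, 111.8 ± 33.6, 174.7 ± 53.7, 225 ± 54.4 and 181.4 ± 42.2 CPM (SD, n = 6 for DMSO and 4 otherwise). The mean at 600 µM lay below that at 250 µM within the spread of the pools. The mean level of hmgcs1 over the same series was 39.4 ± 5.16, 39.6 ± 14.1, 53.5 ± 14.6, 78.8 ± 27.04, 91.7 ± 22.1 and 85.05 ± 30.95 CPM. The 6 DMSO pools had 52.6, 73.3 and 102.9 CPM as lowest, median and highest for cyp51 and 32.5, 38.98 and 47.7 CPM for hmgcs1. The 8 µM pools of cyp51 lay inside that range, and those of hmgcs1, 24.1 to 54.9 CPM, ran past both its ends. Genes of sterol uptake and export (5 tested of 25 listed) had 0 called, 4 positive changes and a median of 0.24, where 51.6% of all probes were positive.

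**Figure D2:**
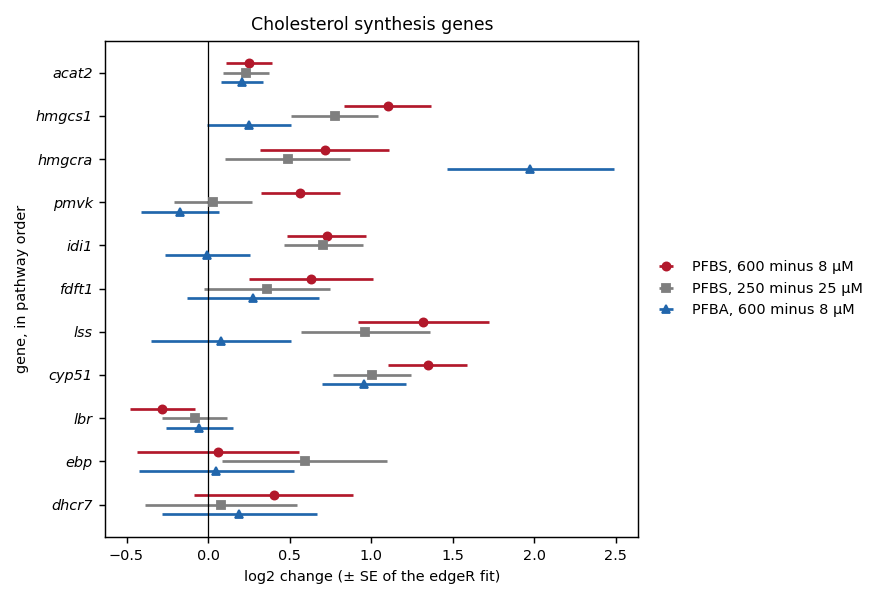
Fitted log2 change ± SE of the 11 tested cholesterol synthesis genes, from acat2 at the start of the pathway to dhcr7 at its end, for PFBS at 600 minus 8 µM (red circles), PFBS at 250 minus 25 µM (grey squares) and PFBA at 600 minus 8 µM (blue triangles), with 4 pools in each group. Both PFBS changes are positive for 10 of the 11 genes and negative for lbr, and PFBA has its highest value at hmgcra (1.98 ± 0.51).

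The elongase gene elovl2 was higher at 600 µM. It encodes an enzyme that lengthens polyunsaturated fatty acids towards DHA. Its levels were 154.7, 92.9, 116.2 and 132.5 CPM in the 600 µM pools and 41.5, 59.5, 53.9 and 43.4 CPM in the 8 µM pools, with no overlap (log2 change 1.32 ± 0.32 SE, adjusted p = 0.0493). Between 250 and 25 µM it had a change of 0.89 ± 0.32 (unadjusted p = 0.00939), with 250 µM pools at 94.3, 112.5, 135.5 and 43.5 CPM and 25 µM pools at 47.2, 84.7, 45.3 and 30.99 CPM. At 250 µM replicate 4 lay far below the other 3 pools. In the fatty acid and triglyceride synthesis list (6 tested of 29, elovl2 among them) elovl2 was the 1 called gene, where 0.365% of all probes were called higher. The list's median was 0.16. Of PPAR target and fatty acid oxidation genes (28 tested of 50) 0 were called and the median was 0.04. Its fatty acid binding protein gene fabp1a had 0.254 to 1.98 CPM at 600 µM and 2.26 to 6.25 CPM at 8 µM (log2 change −1.76 ± 0.62, adjusted p = 0.304 with edgeR).

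The glucuronidation genes ugdh, ugt1a2 and ugt2b5 were higher at 600 µM. The ugdh gene encodes the dehydrogenase that makes UDP-glucuronic acid, the sugar donor, and ugt1a2 and ugt2b5 encode transferases that use it. The ugdh probe had 152.8, 211.7, 233 and 220.2 CPM in the 600 µM pools and 99.3, 123.05, 149.9 and 120.8 CPM in the 8 µM pools and did not overlap (log2 change 0.73 ± 0.16 SE, adjusted p = 0.0284). Among the 2743 probes its level was one of the steadiest between the 6 DMSO pools, rank 2674 of the log2 SD counted from the widest, at 113.5 to 135.4 CPM.

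The ugt1a2 probe had 337, 466, 551 and 487 CPM in the 600 µM pools and 269, 302, 306.2 and 322 CPM in the 8 µM pools (log2 change 0.62 ± 0.14 SE, adjusted p = 0.0408), a change of about 1.53-fold without overlap. The ugt2b5 probe had 67.3, 92.9, 72.3 and 44.8 CPM in the 600 µM pools and 24.6, 20.1, 36.8 and 20.1 CPM in the 8 µM pools (log2 change 1.45 ± 0.35 SE, adjusted p = 0.0493). In the DMSO pools ugt2b5 ran from 19.4 to 50.7 CPM, and 3 of the 6 lay within the range of the 600 µM pools. None of the 16 pools at 8 to 250 µM reached that range. The calls of ugdh, ugt1a2 and ugt2b5 ended without 6, 7 and 7 of the 8 pools, each left out alone.

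Of the wider list of oxidation and conjugation genes 26 of 63 were tested, 2 were called (ugdh and ugt2b5, both higher), and the median change was 0.09. Of all probes 0.365% were called higher. The list's other tested UDP-glucuronosyltransferase genes, ugt2a4 (−0.46 ± 0.39) and ugt1b1 (−0.21 ± 0.27), named after their values were seen, had negative changes and did not pass. The cytochrome b5 reductase gene cyb5r2, outside the list, had 166.9, 312, 233.9 and 219 CPM in the 600 µM pools and 110.05, 108.6, 138.6 and 116.5 CPM in the 8 µM pools (log2 change 0.98 ± 0.19 SE, adjusted p = 0.00894). Replicate 2 at 600 µM was highest and replicate 1 lowest, and all 4 lay above the 8 µM pools. Between 250 and 25 µM, cyb5r2 (0.41 ± 0.19, p = 0.0346) and ugt1a2 (0.33 ± 0.14, p = 0.0298) were also higher at an unadjusted p under 0.05 by edgeR, ugdh was not (0.31 ± 0.16, p = 0.0619).

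Liver markers are given beside these genes. The hepatocyte list (8 of 17 tested, 0 called) summed to 8995 to 12045 CPM at 600 µM and 7747 to 9376 CPM at 8 µM, with overlap. Of its 8 changes 7 were positive (median 0.25), where 51.6% of all probes were. The exception, ttr, had the change of greatest size and the smallest p of the list (−0.95 ± 0.25, unadjusted p = 0.000816 with edgeR), with all 600 µM pools below all 8 µM pools. Whether this has a part in the sterol and conjugation results was not tested.

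**Figure D3:**
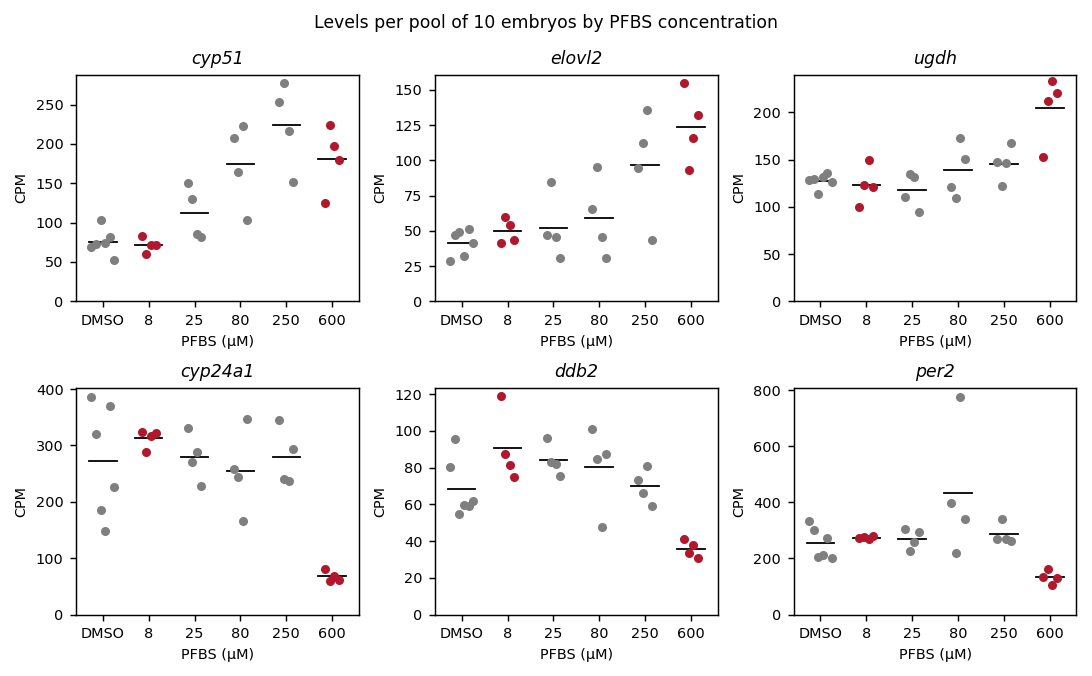
CPM of 6 genes in each pool (points) by PFBS concentration, with DMSO at the left and the group mean as a line; the 600 and 8 µM pools are red. The means of cyp51 and elovl2 at 250 µM lie above those at 8 µM. Among these PFBS and DMSO pools, cyp24a1, ddb2 and per2 are low in the 600 µM pools alone, at 60.2 to 81.4, 30.6 to 41.1 and 106.6 to 161.7 CPM. PFBA pools are not drawn.

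The vitamin D 24-hydroxylase gene cyp24a1, which encodes the enzyme that inactivates calcitriol, had the smallest p of the comparison. It had 81.4, 60.2, 68.3 and 60.5 CPM in the 600 µM pools and 324, 287.9, 315.9 and 323 CPM in the 8 µM pools. The fitted level was 4.63-fold lower at 600 µM (log2 change −2.21 ± 0.25 SE, adjusted p = 4.37e-06), and every 600 µM pool was below every other PFBS and DMSO pool of the fit. Over DMSO, 8, 25, 80, 250 and 600 µM its mean level was 272.1 ± 99.9, 313 ± 16.8, 279.6 ± 42.4, 253.98 ± 74.2, 279 ± 51.3 and 67.6 ± 9.94 CPM. The change between 250 and 25 µM was −0.0019 ± 0.23 (unadjusted p = 0.994 with edgeR). The 6 DMSO pools differed among themselves in this gene, from 147.3 to 386 CPM. The list of vitamin D and retinoid genes (4 tested of 27) had this 1 called member, where 0.255% of all probes were called lower.

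Within the 3 RNA extraction batches that held a pool of each concentration, cyp24a1 differed by −2.25, −2.37 and −1.98 on the log2 scale (600 minus 8 µM). All 17 called genes kept 1 sign in all 3 batches, as did 33.4% of all probes. Because the 600 and 8 µM pools of these 17 genes did not overlap, this outcome was fixed in advance. For cyp51 the 3 differences were 1.90, 1.32 and 0.59, and for ddb2 −1.36, −1.39 and −1.52. With only these batches in the fit and batch as a term, 10 genes were called, and cyp51 no longer passed (log2 change 1.27, adjusted p = 0.0742 with edgeR). On plate 1 alone, with 2 pools against 2, 0 of the 17 passed.

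The damage sensor gene ddb2, which encodes a subunit of the complex that recognises UV lesions in DNA and is a p53 target in human cells, was lower at 600 µM. It had 41.1, 33.7, 38.1 and 30.6 CPM in the 600 µM pools and 119.1, 87.3, 81.4 and 74.9 CPM in the 8 µM pools, without overlap (log2 change −1.34 ± 0.21 SE, adjusted p = 0.000798). In the PFBA pools ddb2 lay at 31.809 to 50.988 CPM at 600 µM and 41.718 to 58.457 CPM at 8 µM. It was the 1 called member of the list on p53, apoptosis and DNA damage (27 tested of 48, median −0.03), where 0.255% of all probes were called lower. The protein-coding gene loc110437775, for which the name tables give no further name, had 549, 415, 452 and 497 CPM in the 600 µM pools and 1721, 1779.8, 1489 and 1558 CPM in the 8 µM pools (log2 change −1.78 ± 0.30 SE, adjusted p = 0.00258). At 80 µM replicate 3 of this gene lay at 317 CPM, below all 600 µM pools.

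The clock gene per2 and the immediate early gene fosab were lower at 600 µM. The period gene per2, a light-induced repressor of the clock, had 135.4, 161.7, 106.6 and 129.03 CPM in the 600 µM pools and 272.3, 277.9, 271 and 279 CPM in the 8 µM pools (log2 change −1.04 ± 0.24 SE, adjusted p = 0.0408). Over DMSO, 8, 25, 80, 250 and 600 µM its mean level was 255 ± 55.7, 275 ± 3.96, 271 ± 35.6, 433 ± 239.9, 286.1 ± 37.7 and 133.2 ± 22.7 CPM, the 80 µM group being widened by replicate 3 at 775 CPM. In the PFBA pools per2 lay at 92.981 to 141.83 CPM at 600 µM and 138.24 to 189.59 CPM at 8 µM. The cryptochrome cry1a, also light-induced in zebrafish, had 235 to 265 CPM at 600 µM and 343 to 387 CPM at 8 µM and did not pass (−0.59 ± 0.15, adjusted p = 0.0896 with edgeR). Of the 14 tested clock genes of 43 listed, 1 was called and 4 had an unadjusted p under 0.05, all lower. Of all probes 0.255% were called lower and 4.37% were lower at that unadjusted level. The list's median was 0.03.

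The AP-1 subunit gene fosab, an immediate early gene, had 95.8, 72.8, 57.9 and 94.2 CPM in the 600 µM pools and 208, 153.6, 132.8 and 171.6 CPM in the 8 µM pools (log2 change −1.06 ± 0.26 SE, adjusted p = 0.0493). Its DMSO pools had 174.7, 279 and 407 CPM as lowest, median and highest. The 8 µM pool at 208 CPM lay within that range, and those at 153.6, 132.8 and 171.6 CPM lay below it. The immediate early gene ier2b had 59.2, 43.6, 53.8 and 52.5 CPM in the 600 µM pools and 120.8, 104.2, 65.2 and 97.8 CPM in the 8 µM pools, which did not pass over all probes (−0.89 ± 0.25, adjusted p = 0.12 with edgeR). Of 20 tested immediate early genes of 40 listed, 1 was called, 5 had an unadjusted p under 0.05, all lower, and the median change was −0.29. Over all probes 0.255% were called lower and 4.37% were lower at that unadjusted level. Between 250 and 25 µM the same list had 1 gene lower at that level and a median of −0.22. Between PFBA at 600 and 8 µM the median of this list was −0.56, against −0.02 over all probes.

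The Krüppel-like factor gene klf11a had 209, 208, 207 and 168.5 CPM in the 600 µM pools and 304.2, 281.9, 308.1 and 335.6 CPM in the 8 µM pools (log2 change −0.63 ± 0.13 SE, adjusted p = 0.021), and the hydrolase gene abhd4, which acts on N-acyl phospholipids, had 208, 162.4, 195.9 and 199 CPM in the 600 µM pools and 326.5, 299.99, 305 and 316.1 CPM in the 8 µM pools (log2 change −0.71 ± 0.16 SE, adjusted p = 0.0408). In both, the 600 µM pools lay below all 8 µM and all 6 DMSO pools. For both, the change between 250 and 25 µM was near 0, at 0.10 ± 0.13 for klf11a and 0.02 ± 0.16 for abhd4.

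The 4 remaining higher genes were trap1, a mitochondrial HSP90 chaperone, mgmt, which repairs alkylated guanine, mettl2a, a tRNA methyltransferase, and prdx2, a peroxiredoxin. The levels of trap1, mgmt and prdx2 also differed widely between DMSO pools. The trap1 probe had 4.81, 22.8, 39.3 and 13.02 CPM in the 600 µM pools and 0.564, 1.21, 0.323 and 0.543 CPM in the 8 µM pools. That is 294 counts in all at 600 µM and 8 counts in all at 8 µM, with 1 to 3 in each 8 µM pool, and a depth-adjusted ratio of 35.4 (95% exact interval 17.7 to 82.8, counting error only; log2 change 4.92 ± 0.99 SE, adjusted p = 0.0161). The 6 DMSO pools had 1.16, 0.987, 21.7, 14.7, 0 and 13.8 CPM. So 3 DMSO pools were near the 600 µM pools and 3 near the 8 µM pools.

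The mgmt probe had 12.9, 20.8, 21.1 and 22.6 CPM in the 600 µM pools and 2.26, 2.01, 1.29 and 2.44 CPM in the 8 µM pools (log2 change 3.24 ± 0.71 SE, adjusted p = 0.0284). Its DMSO pools had 1.46, 1.97, 33.5, 18.7, 2.69 and 16.2 CPM. The prdx2 probe had 776, 1122, 1321 and 640.2 CPM in the 600 µM pools and 229, 165.7, 191.2 and 155.1 CPM in the 8 µM pools (log2 change 2.38 ± 0.56 SE, adjusted p = 0.0408), with DMSO pools at 265.8, 186.2, 2302, 1159, 167.97 and 1139.8 CPM. For both genes the same DMSO replicates, 3, 4 and 6, were high, and 0 of 16 pools at 8 to 250 µM reached the 600 µM pools.

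The mettl2a probe had 9.25, 17.1, 11.2 and 16.5 CPM in the 600 µM pools and 2.26, 2.81, 4.52 and 0.543 CPM in the 8 µM pools (log2 change 2.43 ± 0.53 SE, adjusted p = 0.0284). Its 6 DMSO pools ran from 4.94 to 13.8 CPM, and 3 of them lay within the range of the 600 µM pools. Against DMSO the mettl2a change was 0.46 ± 0.42 at 600 µM (adjusted p = 0.984 with edgeR). At 8 µM it was −1.96 ± 0.51 (adjusted p = 0.196 with edgeR). The 20 PFBA pools had a median of 11.8 CPM in this gene. By the SD of log2 CPM over the 6 DMSO pools, trap1, mgmt and prdx2 ranked 3, 7 and 10 of 2743 probes from the widest. They were the 3 of the 17 called genes among the widest 274 probes, the widest 10th. The median of this SD was 0.347 over the called genes and 0.301 over all probes. The isomerase gene ech1, of peroxisomal and mitochondrial fatty acid oxidation, ranked 4. It had 19.98, 23.03, 28.7 and 20.3 CPM in the 600 µM pools and 2.82, 5.23, 4.52 and 2.99 CPM in the 8 µM pools without passing the test (2.58 ± 0.76, adjusted p = 0.158 with edgeR). The glutathione peroxidase gpx1a ranked first and ran the other way, at 8.12 to 93.04 CPM at 600 µM and 57.8 to 202.3 CPM at 8 µM, with overlap (−1.94 ± 0.81, adjusted p = 0.409 with edgeR). In the list of NRF2 and antioxidant genes (18 tested of 43) prdx2 was the 1 called gene, where 0.365% of all probes were called higher. The median of that list was −0.04.

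A score that places each pool on the first principal component of the 6 DMSO pools, which holds 40.5% of their variance, was −3.28 to 4.25 in the 600 µM pools and −9.41 to −5.60 in the 8 µM pools. The DMSO replicates 3, 4 and 6 had 20.6, 8.86 and 10.4, and the others −14.1 to −11.9. With this score as a covariate, chosen after seeing the data, 10 genes were called in place of 17. The changes of cyp24a1, ddb2, loc110437775 and cyp51 were then −1.92 ± 0.19, −1.21 ± 0.20, −1.48 ± 0.26 and 1.25 ± 0.25, all past the test. Those of trap1, mgmt and prdx2 were smaller, at 3.45 ± 0.69, 2.31 ± 0.48 and 1.39 ± 0.17, and still passed. By size of loading on this component trap1, mgmt and prdx2 ranked 2, 5 and 7. The score is thus built in part from these genes, and their adjusted changes are no separate check of them. By the same measure cyp24a1, loc110437775, ddb2 and cyp51 ranked 203, 227, 884 and 2177 of 2743 probes. The scores of the 600 and 8 µM pools did not overlap, so for no gene is the adjusted change a separate check. The calls of elovl2, per2, klf11a, abhd4, mettl2a, ugt1a2 and ugt2b5 ended, with adjusted p of 0.0892, 0.124, 0.0631, 0.11, 0.0892, 0.124 and 0.211 by edgeR. What sets this difference between pools was not tested.

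**Figure D4:**
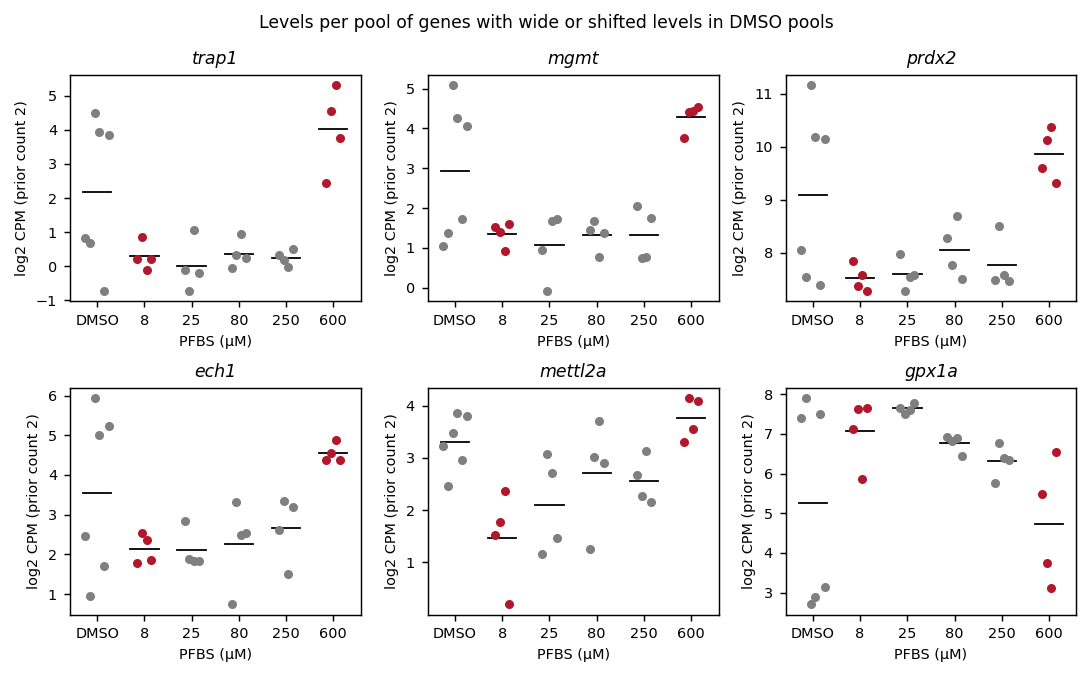
Log2 CPM (prior count 2) of 6 genes in each pool by PFBS concentration, with DMSO at the left and the mean of the log2 values as a line; the 600 and 8 µM pools are red. For trap1, mgmt, prdx2 and ech1, 3 of 6 DMSO pools lie within or above the range of the 600 µM pools and 3 below it. In ech1 the upper 3 all lie above that range, and in mgmt and prdx2 1 does. The gene gpx1a runs the other way.

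In 13 of the 21 gene lists 0 members were called, and 8 of the 17 called genes were in no list. Thyroid genes included ttr, the carrier of thyroid hormone in plasma, at 54.8 to 102.5 CPM at 600 µM and 131.4 to 144.4 CPM at 8 µM (−0.95 ± 0.25, adjusted p = 0.0933 with edgeR). The deiodinase gene dio3b, whose enzyme inactivates thyroid hormone, had 0.766 to 2.48 CPM at 600 µM and 3.55 to 7.34 CPM at 8 µM (−1.84 ± 0.51, adjusted p = 0.118 with edgeR). Groups did not overlap in either gene, the 2 of the list with the smallest p, and 4.37% of all probes had all 600 µM pools below. Of the 15 tested thyroid genes 0 were called, 11 had negative and 4 positive changes (median −0.16). Over all probes 51.6% of changes were positive. For ttr the change between 250 and 25 µM was −0.59 ± 0.25 (unadjusted p = 0.0264 with edgeR). The DMSO pools averaged 91.3 ± 35.5 CPM in ttr (SD, n = 6) and spanned 0.987 to 8.06 CPM in dio3b.

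Among 54 tested cell cycle and DNA replication genes of 80 listed, 0 were called, 6 had an unadjusted p under 0.05, all higher, and 40 were positive, with a median of 0.16. Over all probes 4.85% were higher at that level and 51.6% of changes were positive. The 6 genes included cenpk, a kinetochore gene, at 29.4 to 36.9 CPM at 600 µM and 13.3 to 26.3 CPM at 8 µM (0.71 ± 0.25), and tpx2, a spindle gene (0.74 ± 0.26). Between 250 and 25 µM 20 of the 54 were positive, where 49.5% of all probes were, and the median was −0.03. The immunoproteasome subunit psmb9a (−1.39 ± 0.46) and the hypoxia-list gene hif1al (−0.43 ± 0.13) did not pass.

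Of 8 retinal genes tested 0 were called, and an unadjusted p under 0.05 was found for 3 opsin genes with positive changes and 2 genes with negative ones. Among all probes 4.85% were higher and 4.37% lower at that level. The list had 5 positive and 3 negative changes (median 0.23). The opsin gene opn1lw1 had 3278 to 4117 CPM at 600 µM and 1751 to 3141 CPM at 8 µM. For opn1lw2 these were 401 to 499 and 227 to 357 CPM. Between PFBA at 600 and 8 µM the opn1lw2 change was −0.54 ± 0.18 (adjusted p = 0.277 with edgeR). Both opsin genes were named after their values were seen. The cone arrestin arr3a had 211, 217, 249 and 279.5 CPM in the 600 µM pools and 445, 520.0, 482 and 527 CPM in the 8 µM pools (−1.04 ± 0.30, adjusted p = 0.154 with edgeR), and the bipolar cell factor vsx1 had 548 to 813 CPM at 600 µM and 991 to 1162 CPM at 8 µM (−0.59 ± 0.17). Markers of fibroblasts and matrix summed to 21543 to 26193 CPM at 600 µM and 17743 to 19911 CPM at 8 µM, without overlap, and 8 of 9 changes were positive (median 0.12). Of these 9 genes 2 were higher at an unadjusted p under 0.05 by edgeR, and 1 had all 600 µM pools above. Over all probes 4.85% were higher at that level, 4.19% had all 600 µM pools above, and 51.6% of changes were positive. Over 16 marker lists with a tested member 0 genes were called.

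Both concentrations were also set against the 6 DMSO pools, and these readings share their 600 or 8 µM pools with the comparison and their DMSO pools with each other. At 600 µM 24 genes were called against DMSO (0.875%; 12 higher and 12 lower, 0.437% each) and at 8 µM 1 gene (0.0365%), the Fos-family gene fosl1a, named after its values were seen, which was lower (−1.61 ± 0.29, adjusted p = 0.0219 with edgeR), with 191 probes at an unadjusted p under 0.05 (6.96%) and 7 called by DESeq2. Against DMSO the changes at 600 µM were 1.27 ± 0.21 for cyp51, 1.57 ± 0.28 for elovl2, −2.01 ± 0.23 for cyp24a1 and −1.85 ± 0.24 for fosab. At 8 µM they were −0.08 ± 0.22, 0.25 ± 0.29, 0.20 ± 0.21 and −0.79 ± 0.23 in the same order of genes. For trap1 the change against DMSO was 1.21 ± 0.66 at 600 µM (adjusted p = 0.786) and −3.71 ± 0.97 at 8 µM (adjusted p = 0.196 with edgeR). Of the 17 called genes 14 had the same sign between 250 and 25 µM, as did 56.4% of all probes. There 4 of the 17 had an unadjusted p under 0.05 by edgeR, all with the same sign, where 2.81% of all probes had such a p in either direction.

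PFBA, tested at the same 2 concentrations, allowed the change between 600 and 8 µM to be compared between a sulfonic and a carboxylic acid with equally many carbons. The difference between the 2 changes passed the test in 15 of 2808 probes (0.534%; 22 with DESeq2), 10 with a higher (0.356%) and 5 with a lower change (0.178%) in PFBS. Between PFBA at 600 and 8 µM alone 3 genes were called (0.107%). In 14 of the 15 genes PFBS and PFBA had changes of opposite sign. Picking genes by the difference of the 2 changes favours opposite signs, and the share over all probes is not given. Among the 274 probes that varied most between DMSO pools, the widest 10th, were 8 of the 15. The calls depended on single pools: 0 remained without replicate 1 of PFBS at 8 µM, and 0 with RNA extraction batch as a term.

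For cyp24a1 the difference of PFBS minus PFBA was −1.44 ± 0.31 (95% interval −2.08 to −0.81, adjusted p = 0.0226 with edgeR). Its levels were 67.4 ± 9.95 CPM at 600 µM and 312 ± 16.7 CPM at 8 µM in PFBS, and 87.6 ± 15.7 CPM at 600 µM and 148.9 ± 25.6 CPM at 8 µM in PFBA (SD, n = 4 each). The 600 µM means of the 2 chemicals lay closer together than their 8 µM means. For trap1 the difference was 5.61 (95% interval 2.92 to 8.29) and for mgmt 4.09 (95% interval 2.46 to 5.73). The mgmt level at 600 µM was 19.3 ± 4.32 CPM in PFBS and 14.4 ± 5.95 CPM in PFBA, whereas at 8 µM it was 1.996 ± 0.504 CPM in PFBS and 26.3 ± 7.50 CPM in PFBA. At 600 µM prdx2 had 962 ± 311 CPM in PFBS and 769 ± 176.4 CPM in PFBA, and at 8 µM 184.8 ± 32.8 CPM in PFBS and 1191 ± 191.2 CPM in PFBA.

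Beside trap1 and mgmt, the 3 largest called differences in the positive direction included ech1 (3.60), and the 3 largest in the negative direction were gpx1a (−5.36), the DNA damage adaptor paxip1 (−2.07) and the ubiquitin-conjugating enzyme gene ube2ka (−1.97). At 600 µM gpx1a had 39.5 ± 39.01 CPM in PFBS and 59.9 ± 43.8 CPM in PFBA, and at 8 µM 148.5 ± 67.2 CPM in PFBS and 5.59 ± 1.85 CPM in PFBA. Among the DMSO pools gpx1a was low in replicates 3, 4 and 6 and high in the others, at 167.7, 239, 5.92, 6.78, 180.2 and 8.24 CPM for replicates 1 to 6.

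For the sterol and lipid genes no difference between the chemicals passed the test. The cyp51 change was 0.95 ± 0.26 in PFBA (unadjusted p = 0.000567 with edgeR), and the difference of PFBS minus PFBA was 0.39 with a 95% interval of −0.33 to 1.11. The cyp51 levels were lower throughout in PFBA, at 104.9, 109.9, 89.2 and 71.5 CPM at 600 µM and 34.1, 51.8, 57.3 and 50.001 CPM at 8 µM. Intervals of the difference were 0.12 to 1.58 for hmgcs1, 0.02 to 2.46 for lss, −0.01 to 1.47 for idi1 and 0.34 to 2.06 for elovl2, where PFBA had a change of 0.13 ± 0.30. For hmgcra the difference was negative, at −1.26 (95% interval −2.63 to 0.10), with a PFBA change of 1.98 ± 0.51. For lbr it was −0.23. The differences of pmvk, fdft1, dhcr7, acat2 and ebp were 0.74, 0.35, 0.21, 0.04 and 0.01. The intervals are not adjusted over all probes. The adjusted p of the difference was 0.416 for hmgcs1, 0.491 for lss and 0.295 for elovl2 with edgeR. The median change of the 11 cholesterol synthesis genes was 0.19 in PFBA. For fosab the PFBA change was −1.39 ± 0.26, which passed the test in PFBA alone (adjusted p = 0.0117 with edgeR). The interval of the difference for fosab was −0.42 to 1.08. For ddb2 the PFBA change was −0.37 ± 0.19 and the interval −1.52 to −0.42. Neither difference passed the test (adjusted p = 0.828 for fosab and 0.119 for ddb2 with edgeR).

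**Figure D5:**
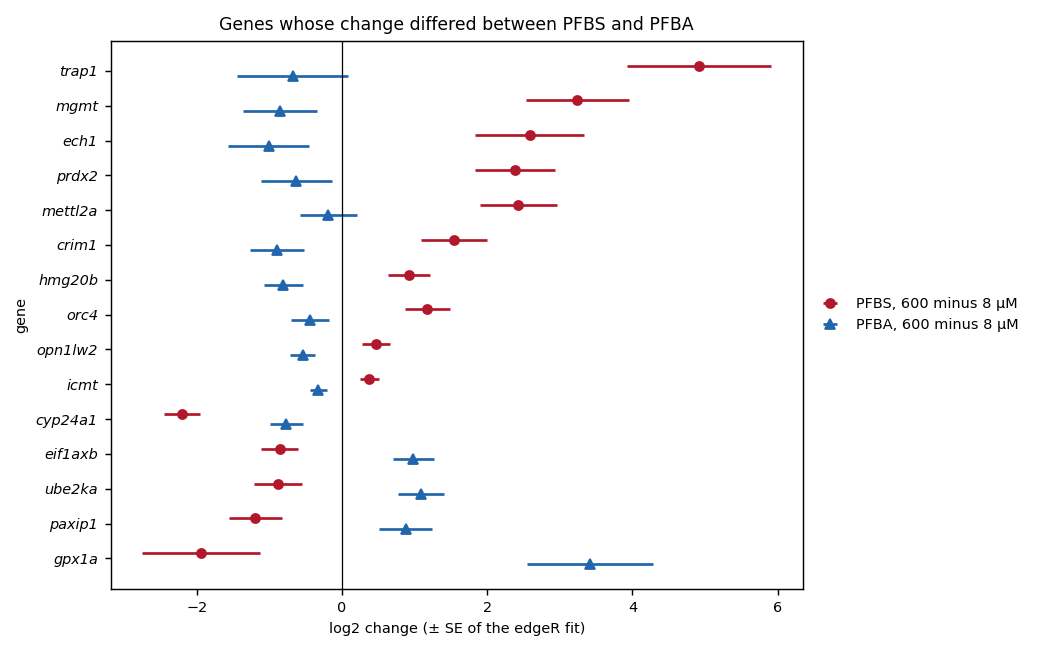
Fitted log2 change ± SE between 600 and 8 µM for the 15 genes whose change differed between the chemicals, in PFBS (red circles) and PFBA (blue triangles), with 4 pools in each group. In 14 genes the 2 changes have opposite signs, which picking genes by their difference favours. The gene cyp24a1 is lower at 600 µM in both, at −2.21 ± 0.25 in PFBS and −0.77 ± 0.22 in PFBA.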

How the data were processed

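Whole-embryo pools were measured with the TempO-Seq S1500+ zebrafish panel, and the authors deposited whole-number counts per probe, 3183 probes in 228 libraries. Per the submitters' processing notes, fastp 0.23.2, STAR 2.7.10b and R 4.4.1 were used; the sources used here do not give the build, the counting rule or the tools' roles, and no coordinates or sequences are printed. A probe reads 1 short target, so levels of different genes are not compared. Groups came from the sample titles. From the deposited counts, edgeR 4.0.16 (filterByExpr, TMM scaling, quasi-likelihood test, Benjamini-Hochberg adjustment over all probes tested, threshold 0.05) was run in R 4.3.3 on the 26 PFBS and DMSO pools, with 20 residual degrees of freedom, and on 46 pools with PFBA for the difference between chemicals. Log2 CPM used a prior count of 2. RNA yield and integrity were compared with exact two-sided permutation tests. The fits were tested on simulated data. Libraries in the main fit held 2478293 to 4148499 counts, and intervals of count ratios cover counting error only.

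The members and the gene lists were chosen with earlier results of these data known. Genes named were every called gene, the cholesterol synthesis genes and elovl2, up to 2 genes per list with an unadjusted p under 0.01, and the 3 largest called differences between PFBS and PFBA in each direction. For 64 symbols with more than 1 probe, the probe with the highest mean count stands for the gene. Alternatives were DESeq2 1.42.0, scaling by its size factors or by total counts, testing without a low-count filter, plate, extraction batch or replicate number as a term, only the pools contrasted, shared batches, single plates, and each pool left out. Leaving out replicate 3 at 80 µM and a score covariate were added after seeing the data. Other chemicals were left out.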

Additional observations from a re-analysis of the deposited data

Results flagged for a closer look

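In 5 of 88 groups examined for a lone pool, 1 pool stood apart from the other 3 by Dixon's criterion, where chance gives about 1 in 20. In klf11a, replicate 4 at 600 µM had 168.5 CPM and the others 207.3 to 209.4 CPM. In pmvk, replicate 3 at 600 µM had 80.69 CPM and the others 50.16 to 51.06 CPM. In tpx2, replicate 2 at 600 µM had 29.71 CPM and the others 19.61 to 21.31 CPM. In acat2, replicate 1 at 8 µM had 192.4 CPM and the others 261.6 to 271.0 CPM. RNA yield in replicate 4 at 600 µM was 272 ng/µl, against 346 to 358 ng/µl in the others.

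The change between 600 and 8 µM differed between PFBS and PFBA in the interaction test of edgeR for 9 of the genes named by the rule above. It also differed for opn1lw2, which was named after its values were seen. On the log2 scale, PFBS minus PFBA was 5.605 for trap1, 4.094 for mgmt, 3.599 for ech1, 3.011 for prdx2, 2.619 for mettl2a and 1.017 for opn1lw2. It was −5.357 for gpx1a, −2.068 for paxip1, −1.971 for ube2ka and −1.445 for cyp24a1. The part of the spread between DMSO pools in these differences was not tested.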

How the results depend on the processing

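No called value changed sign, and of 878 values of single genes under the alternatives, 704 kept their side of the threshold, 35 newly passed it and the rest no longer did. For 600 against 8 µM PFBS the 17 calls became 29 with DESeq2, 31 with extraction batch as a term, 68 with only the pools contrasted, 27 without replicate 3 at 80 µM, 10 with the score covariate, 10 in the shared batches, 0 on plate 1 alone (2 pools against 2) and 9 on plate 2 alone. Leaving out 1 pool gave 4 to 16 calls: 5, 5 and 8 without replicates 2, 3 and 4 at 600 µM, and 4, 7, 8 and 5 without replicates 1, 2, 3 and 4 at 8 µM. The cause of these moves was not tested.

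For 250 against 25 µM, 0 became 1 with only the pools contrasted. For 600 µM against DMSO, 24 became 41 with DESeq2 and 43 without replicate 3 at 80 µM, and 12 to 27 with 1 pool left out (12, 15 and 13 without replicates 2, 3 and 4 at 600 µM). For 8 µM against DMSO, 1 became 4 with total counts, 7 with DESeq2, 62 with extraction batch as a term, 0 with only the pools contrasted, 0 with the score covariate, and 0 to 8 with 1 pool left out (4, 8, 0 and 4 without DMSO replicates 1, 2, 3 and 5, and 0 without any 1 pool at 8 µM). For PFBS minus PFBA, 15 became 67 with only the pools contrasted, 0 with extraction batch as a term and 23 without replicate 3 at 80 µM. With 1 pool left out it was 0 to 16: 3 and 9 without PFBS replicates 2 and 3 at 600 µM, 0, 6 and 5 without PFBS replicates 1, 3 and 4 at 8 µM, 7, 8 and 4 without PFBA replicates 2, 3 and 4 at 600 µM, and 8 without PFBA replicate 4 at 8 µM. For PFBA at 600 against 8 µM, 3 became 17 with DESeq2, 10 with batch as a term, 36 with only the pools contrasted, and 0 to 3 with 1 pool left out (0 without replicates 1 or 3 at 600 µM or 1 at 8 µM, and 1 without replicate 3 at 8 µM).

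Deviations of same-numbered pools at 600 and 8 µM from their group means had r of 0.114, −0.060, −0.024 and −0.003. Replicates 1 and 2 also shared an extraction batch between the concentrations. These few values do not settle whether the numbers pair the pools. With the replicate block the calls were 20 for 600 against 8 µM, 0 for 250 against 25 µM, 18 and 0 for 600 and 8 µM against DMSO, 18 for PFBS minus PFBA and 7 for PFBA. Genes with few counts, such as trap1, lss and dhcr7, allow only large changes to be seen.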
